A study of Homo sapiens with 6 samples.

Results

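SP100, SP110, SP140, SP140L, PML, DAXX and ATRX encode the SP100 family of chromatin readers and the core of PML nuclear bodies, and they were chosen by gene symbol. All 7 were found among the 61517 genes of the count table, and all 7 passed the filter on low counts, as did 14051 genes in all. The series measured poly-A RNA by sequencing in THP-1 cells, an established human monocytic leukaemia line, described by the submitters as differentiated into macrophages and driven into pyroptosis, a lytic inflammatory cell death, with LPS and ATP. The 3 control libraries (RUX-) had the treatment "none", and the 3 ruxolitinib libraries (RUX+) had the drug that the treatment field spells "Lukotinib" and the series title names ruxolitinib, a JAK1 and JAK2 inhibitor. Both groups carried the LPS and ATP stimulus, all libraries came from 1 cell line, and cells without the stimulus were not analysed here.

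PML nuclear bodies are spherical structures of the cell nucleus. PML builds their shell, covalent SUMO marks hold partners such as SP100 and DAXX inside, and ATRX joins DAXX to place the histone variant H3.3 in silent chromatin. The SP100 family shares an N-terminal oligomerisation domain, a DNA-binding SAND domain and, in the longer proteins, a PHD finger and bromodomain that read histones. PML and SP100 are textbook interferon-induced genes, interferon receptors signal through JAK kinases and STAT factors, and the bodies restrict incoming viral genomes.

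The libraries held 17757595 to 24533979 counts, and replicate libraries of a group correlated at 0.988 to 0.991 in log2 CPM (a gene's counts scaled to a fixed library total) over the tested genes. Of 8 monocyte and macrophage markers, 6 were lower with ruxolitinib, LYZ was higher and CEBPB did not pass. Their summed level was 1105 to 1174 CPM in control and 613 to 675 CPM with ruxolitinib. Of 9 markers of T, B, stromal, endothelial and epithelial cells, CD3D and CD3E had 0 counts in every library, which allows up to 0.120 to 0.169 CPM per library (3 counts), and COL1A1 and PECAM1 alone were high enough to test. PECAM1, which monocytes also express, made up most of the summed level of those 9, which was 822 to 891 CPM in control and 561 to 593 CPM with ruxolitinib. The part of these marker differences in the results that follow was not tested, and in bulk RNA fewer cells of a type and less RNA per cell cannot be told apart.

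The 4 SP100 family genes lie together on chromosome 2 (GRCh38, 230167293 to 230544090, a span of 376.8 kb). SP110 runs on the minus strand (230167293 to 230225729), and SP140 (230203110 to 230313215), SP140L (230327184 to 230403732) and SP100 (230415942 to 230544090) run on the plus strand. PML lies on chromosome 15 (73994673 to 74047812, plus strand), DAXX on chromosome 6 (33318558 to 33323016, minus strand) and ATRX on chromosome X (77504878 to 77786233, minus strand). By their RefSeq start sites, 230225636 and 230225736, SP110 and SP140 are transcribed away from each other, 100 bases apart. The gene spans above are from GENCODE 29, where SP140 begins inside SP110, so those spans overlap. The RefSeq promoter table (GRCh38.p14, 250 bases before to 50 after a start) matched 4 of the 7 genes, SP100, SP110, SP140 and SP140L, with 6 windows.

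The 120 bases before the start sites of SP110, SP140L and SP100 are shown because these neighbours were all lower with ruxolitinib and to different degrees. Capitals mark matches, on either strand, to AANNGAAA, a pattern of the interferon regulatory factor (IRF) family, and overlapping matches run together. The SP110 stretch (chr2:230225637-230225756, minus strand) also holds the start of SP140, read on the opposite strand. The SP140L stretch is chr2:230327073-230327192 and the SP100 stretch is chr2:230416081-230416200, both on the plus strand.
SP110: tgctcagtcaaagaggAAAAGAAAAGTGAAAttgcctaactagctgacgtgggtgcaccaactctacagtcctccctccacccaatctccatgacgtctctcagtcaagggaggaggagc
SP140L: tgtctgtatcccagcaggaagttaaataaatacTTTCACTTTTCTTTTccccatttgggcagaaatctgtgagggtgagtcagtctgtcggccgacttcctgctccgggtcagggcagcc
SP100: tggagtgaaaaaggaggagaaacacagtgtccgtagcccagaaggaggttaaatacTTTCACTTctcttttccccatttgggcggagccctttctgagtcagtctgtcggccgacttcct

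The 8-letter word AAGTGAAA, or its reverse complement, stood in 5 of the 6 windows and in all 4 matched genes. Counted from the start site, its first base lay at position -97 in SP110, -10 in SP140, -87 in SP140L and -64 in SP100, and at -51 from the second SP110 start, 230219984. The second SP100 window, whose start is 230416756, did not hold it. The SP110 window with the match at -97 and the SP140 window share 199 bases. Their matches are the same site, read on opposite strands, so the windows are not independent. Over all 35116 RefSeq windows, 1.62% held AAGTGAAA and 22.8% held AANNGAAA on either strand, AAGTGAAA being 1 form of AANNGAAA, and both patterns were chosen after the sequences had been read. The next 20-base stretches, read on the strand that begins with the word (in capitals), show how alike the sites are.
SP110 and SP140, shared: TTTCACTTttcttttcctct
SP110, second start: TTTCACTTttcttttctcgg
SP140L: TTTCACTTttcttttcccca
SP100: TTTCACTTctcttttcccca
Counted from the first base of these stretches, SP140L and SP100 differ by T9C alone, with the SP140L base given first. The SP100 and SP140L windows were 93.0% identical over 272 aligned bases, against 70.3% over 259 for SP100 and SP110. For SP110 and SP140L the identity was 75.4% over 244. Gaps were left out of these percentages, and the identity of unrelated windows was not computed. The interferon-stimulated response element core GAAANNGAA (8.11% of all windows), the STAT pattern TTCCNGGAA (1.15%) and the NF-kB pattern GGANTTTCC (1.64%) had no match in the 6 windows. The looser STAT pattern TTCNNNGAA (7.66%) matched the second SP110 window alone. A match is a description of letters and no evidence of binding.

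Of the 7 genes, 5 fell with ruxolitinib (SP110, PML, SP100, SP140L and SP140) and 0 rose, and DAXX and ATRX did not pass. The count was 4, without SP140, by DESeq2 and with the labelled batch as a block. The test was edgeR's quasi-likelihood test with Benjamini-Hochberg adjustment over all tested genes, threshold 0.05, which also gives every adjusted p below. Among all tested genes 29.7% passed, 16.1% lower and 13.6% higher. That split moved with the scaling: 2267 lower and 1908 higher genes became 1957 and 2318 with upper-quartile factors, and 2621 and 1578 with library totals alone. The median log2 fold change of the 7 was -0.73, beside -0.01 over all tested genes. Control and ruxolitinib libraries did not overlap for 6 of the 7, all of them lower with ruxolitinib, beside 44.2% of all tested genes in either direction and 23.8% in that direction. Within the 3 labelled batches the log2 differences ran from -3.24 to -2.90 for SP110, -2.36 to -1.51 for PML, -1.12 to -0.99 for SP100, -0.87 to -0.61 for SP140L and -0.88 to -0.11 for SP140. The genes were picked with earlier results of these data known, so these counts describe them and test nothing about the family.

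**Figure D1:**
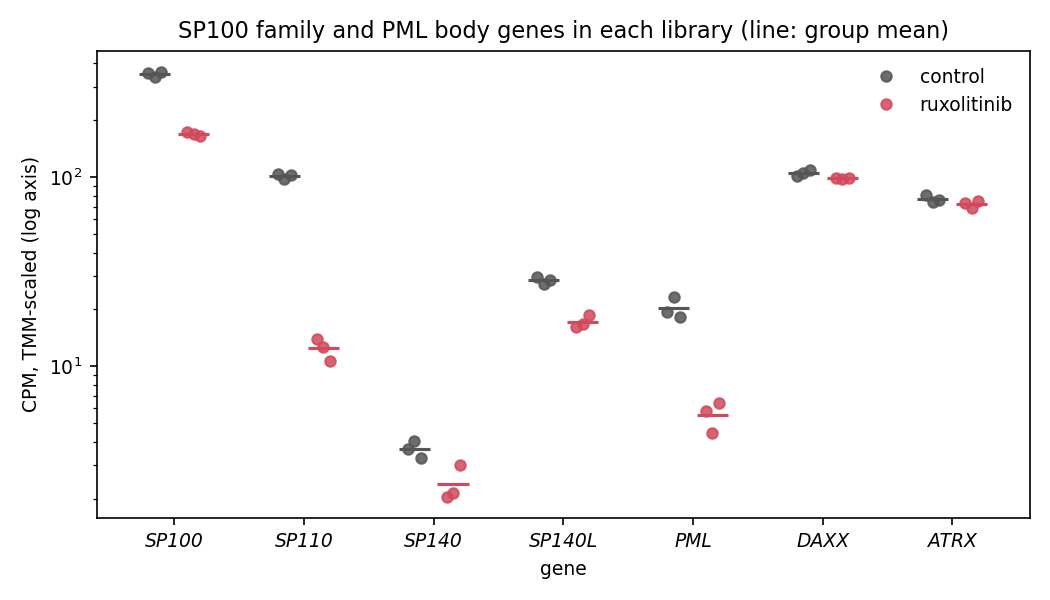
Level of each gene in CPM (log axis) in the 3 control and 3 ruxolitinib libraries, with a line at each group mean. SP110 drops from about 101 to 12.5 CPM and PML from 20.3 to 5.54, while the DAXX and ATRX groups lie close together.

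SP110, a nuclear body protein of leukocytes whose loss causes an immunodeficiency with liver disease, had the largest fall of the 7. Its level was 104, 97.4 and 102 CPM in control replicates 1 to 3 and 13.9, 12.7 and 10.7 CPM in ruxolitinib replicates 1 to 3. Every ruxolitinib library was far under every control library. The log2 fold change was -3.02 ± 0.08 (SE, n = 3 per group, adjusted p = 4.6e-11), which leaves 12.3% of the control level, and 0.399% of tested genes changed more in either direction. By size of fall it ranked 57 among all tested genes.

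PML, the scaffold of the bodies and the gene fused to RARA in acute promyelocytic leukaemia, had the next largest fall. It stood at 19.4, 23.2 and 18.3 CPM in control and 5.78, 4.45 and 6.39 CPM with ruxolitinib. The groups were well apart, and control replicate 2 was the highest and ruxolitinib replicate 2 the lowest of all. The log2 fold change was -1.88 ± 0.14 (SE, adjusted p = 1.5e-06), or 27.2% of the control level. PML was read from 345 to 583 counts in control libraries and 83 to 119 with ruxolitinib.

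SP100, a permanent resident of the bodies that binds heterochromatin protein HP1, was the gene of the 7 with the most reads. Control libraries had 357, 338 and 360 CPM and ruxolitinib libraries 173, 170 and 166 CPM. Replicates lay close together and the groups were wide apart. The log2 fold change was -1.05 ± 0.05 (SE, adjusted p = 6.1e-09), or 48.2% of the control level.

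SP140L, the close relative of SP140, went from 29.5, 27.2 and 28.6 CPM to 16.1, 16.8 and 18.7 CPM. The lowest control library was above the highest ruxolitinib library. Its log2 fold change was -0.73 ± 0.08 (SE, adjusted p = 2.5e-05), or 60.4% of the control level. SP140L and SP140 transcripts share some sequence: 10.8% of the distinct 50-base words of SP140L also occur in SP140, and 7.74% of its 100-base words.

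SP140, a histone reader of lymphoid and myeloid cells, was the least abundant of the 7. It had 3.66, 4.02 and 3.26 CPM in control and 2.05, 2.14 and 3.01 CPM with ruxolitinib, from 65 to 101 and 39 to 56 counts. Ruxolitinib replicate 3 came close to control replicate 3, though the groups did not overlap. The log2 fold change was -0.61 ± 0.20 (SE, adjusted p = 0.0356). With the labelled batch as a block it no longer passed (adjusted p = 0.0846), and within batches 1 to 3 the log2 differences were -0.81, -0.88 and -0.11. Nor did it pass by DESeq2 (adjusted p = 0.114) or without any 1 library other than ruxolitinib replicate 3 (0.0522 to 0.146). SP140 exons share 170 bases with SP110 exons on the opposite strand and the strand setting of the counting is not given, so its small count may hold reads of its neighbours, which was not tested.

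DAXX, the H3.3 chaperone that PML bodies recruit, did not pass. It had 102, 106 and 109 CPM in control and 99.3, 98.3 and 99.2 CPM with ruxolitinib. Each ruxolitinib library was a little under the lowest control library. The log2 fold change was -0.09 with a 95% interval of -0.20 to 0.01 (adjusted p = 0.153).

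ATRX, the chromatin remodeller that partners DAXX, did not pass either. Levels were 80.6, 73.9 and 75.9 CPM in control and 73.5, 68.7 and 75.2 CPM with ruxolitinib, and the groups overlapped. The log2 fold change was -0.08 with a 95% interval of -0.20 to 0.04 (adjusted p = 0.294). The intervals of DAXX and ATRX hold falls of up to 0.20 on the log2 scale, less than the fitted fall of any of the other 5. The 95% interval of SP140, -1.03 to -0.18, overlaps both of them.

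**Figure D2:**
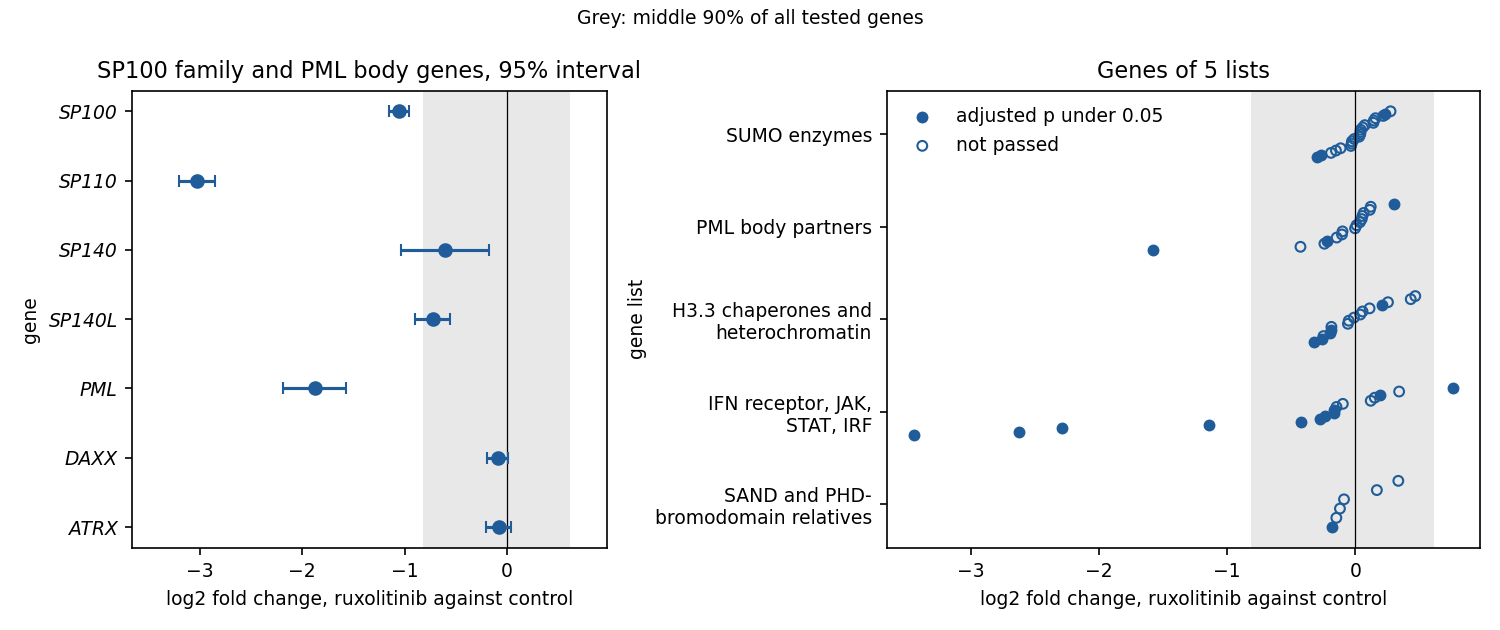
Log2 fold changes with ruxolitinib on the horizontal axes: the 7 genes with 95% intervals on the left, and the tested genes of 5 lists as points on the right, where points are filled if the adjusted p was under 0.05; the grey band holds the middle 90% of all tested genes (-0.81 to 0.61). SP110, PML and SP100 lie outside the band, as do ISG20 and 5 of the interferon signalling genes.

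Per kilobase of merged exon length (GENCODE 29), control levels ran from DAXX (34.2 ± 1.11 CPM per kb, SD, n = 3) through SP100 (27.9 ± 0.942), SP110 (14.8 ± 0.511), SP140L (5.04 ± 0.206), ATRX (3.99 ± 0.178) and PML (1.61 ± 0.203) to SP140 (0.654 ± 0.0687), and the libraries of neighbours in this order did not overlap. With ruxolitinib the order per kb was DAXX (32.1 ± 0.184), SP100 (13.4 ± 0.287), ATRX (3.76 ± 0.174), SP140L (3.04 ± 0.240), SP110 (1.81 ± 0.233), PML (0.438 ± 0.0784) and SP140 (0.430 ± 0.0946), and PML and SP140 overlapped. SP110 thus went from the third to the fifth place. The first place depends on the length used: per kb of the longest transcript, SP100 led in both groups (90.7 against 40.4 for DAXX in control, 43.7 against 37.9 with ruxolitinib).

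The question of how far the genes moved apart was asked with 6 ratios of counts within a library, which no scaling can shift. SP110 to SP100 had a log2 ratio of -1.78, -1.80 and -1.81 in control and -3.63, -3.74 and -3.95 with ruxolitinib. Control libraries were nearly alike, and all ruxolitinib libraries were lower, with a difference of -1.98 between group means (exact permutation test, two-sided, p = 0.1, or 0.2 adjusted over the 6; groups of 3 can give no p under 0.1). DAXX to PML went from a log2 ratio of 2.38 ± 0.191 to 4.18 ± 0.262 (SD, n = 3, exact p = 0.1, adjusted 0.2), with no overlap.

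SP100 to PML sets the counts of a client gene over those of the scaffold gene. Its log2 values were 4.12 ± 0.227 in control and 4.95 ± 0.284 with ruxolitinib (SD, n = 3). All ruxolitinib libraries were higher, by 0.83 on average (exact p = 0.1, adjusted 0.2), but by 0.55 without the libraries numbered 2. ATRX to DAXX, the pair that works as a complex, had overlapping log2 ratios of -0.46 ± 0.103 and -0.45 ± 0.0600 (SD, n = 3, exact p = 0.8, adjusted 0.8). SP140L to SP140 overlapped as well, at 2.97 ± 0.193 and 2.86 ± 0.193 (exact p = 0.5, adjusted 0.6), and the difference of -0.11 became 0.086 without the libraries numbered 3. SP140 to SP100 overlapped at -6.60 ± 0.198 and -6.16 ± 0.333 (exact p = 0.2, adjusted 0.3), and its difference of 0.43 was 0.15 without those libraries.

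**Figure D3:**
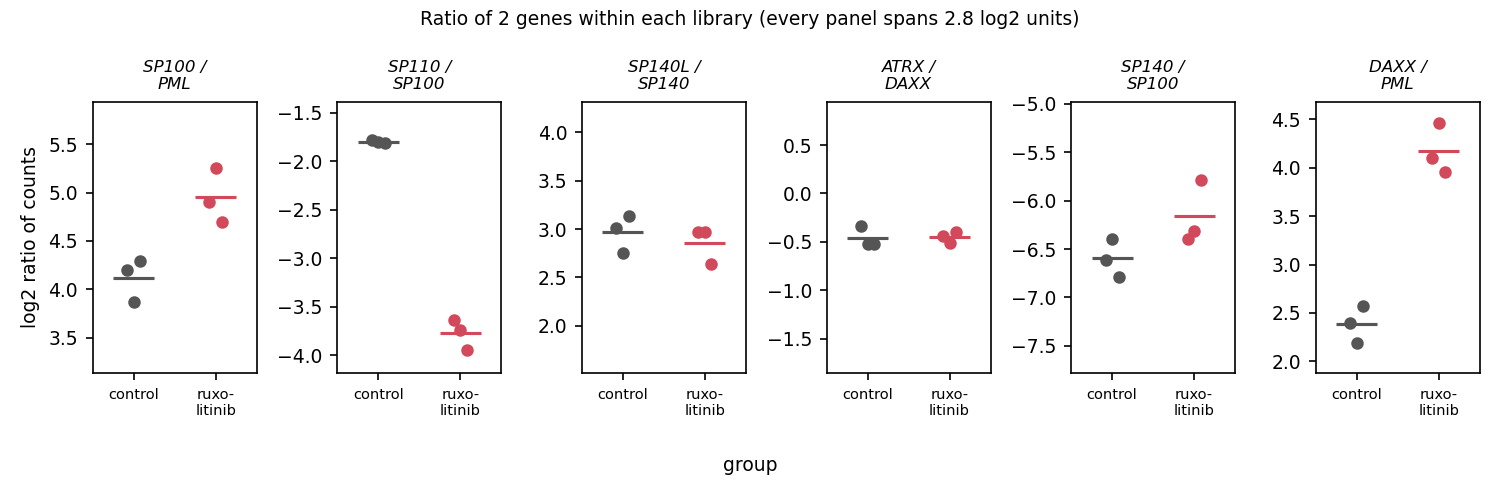
Log2 ratio of the counts of 2 genes in each library, with a line at each group mean and panels of equal height. SP110 to SP100, SP100 to PML and DAXX to PML separate control from ruxolitinib, and the other 3 ratios overlap.

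Tested genes beside the chromosome 2 cluster were read as well. The 3 nearest tested genes on each side were taken by position: on the side of SP110, TRIP12, a ubiquitin ligase gene, rose by 0.19 ± 0.05 (log2, SE, adjusted p = 0.0107), and FBXO36 (0.05) and DNER (-0.02) did not pass. On the side of SP100, CAB39 had -0.11 (adjusted p = 0.133), ITM2C rose by 0.45 ± 0.04 (adjusted p = 1.2e-05) and the lipid receptor gene GPR55 by 0.93 ± 0.28 (adjusted p = 0.0282), from 0.936 ± 0.323 to 1.83 ± 0.197 CPM (SD, n = 3). With the block ITM2C alone of the 6 passed (adjusted p = 7.2e-04), and TRIP12 and GPR55 did not (0.0622 and 0.0624). CAB39 was lower past the threshold under 3 of 17 alternatives, among them library totals alone. The rise of ITM2C passed under all 17, that of TRIP12 under 14 and that of GPR55 under 10. GPR55 did not pass by DESeq2 (adjusted p = 0.0769). Inside the cluster the 1 other tested gene was HMGB1P3, a pseudogene within SP100 that overlaps 544 of its exon bases, with -0.50 (adjusted p = 0.0992). AC009950.1, antisense to SP110, overlaps 18.4% of the SP110 exon bases, and had 50 counts over the 6 libraries against 7355 for SP110.

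**Figure D4:**
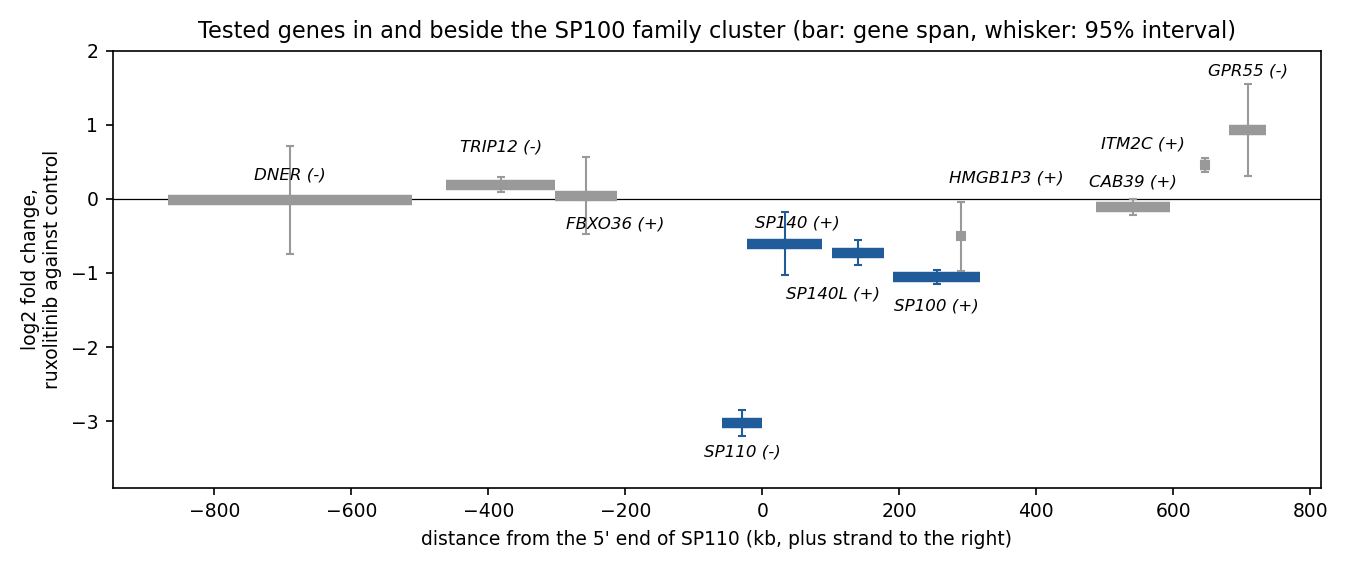
Log2 fold change of the tested genes in and beside the cluster against distance from the start of SP110 in kb, with bars for gene spans, whiskers for 95% intervals and the strand in brackets. The 4 SP100 family genes (blue) lie between -3.02 and -0.61, and 5 of the 6 genes outside the cluster (grey) lie between -0.02 and 0.93 with CAB39 at -0.11; HMGB1P3, also grey, lies inside SP100.

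Partners of the bodies outside the 7 were counted by list, to be read beside the 16.1% lower and 13.6% higher of all tested genes. Of 21 genes for SUMO conjugation and removal, falls numbered 2, rises 1, and 18 did not pass (median log2 fold change 0.04). PIAS1, a SUMO ligase gene, fell by 0.30 ± 0.05 and RNF111, a ubiquitin ligase gene that targets SUMO chains, by 0.27 ± 0.05. The SUMO-activating enzyme gene UBA2 rose by 0.23 ± 0.06 (adjusted p = 0.0159, but 0.0695 with the block). SUMO2, SUMO3 and RNF4, the ligase that degrades SUMO-marked PML, had log2 fold changes of 0.04, -0.03 and 0.06 and did not pass.

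Of 16 other residents and partners of PML bodies, 2 fell, 1 rose and 13 did not pass (median 0.00). ISG20, an interferon-induced exonuclease found in the bodies, fell from 20.2 ± 1.42 to 6.74 ± 0.489 CPM (SD, n = 3, log2 fold change -1.58 ± 0.10, adjusted p = 2.5e-07). USP7, the deubiquitinase, rose by 0.30 ± 0.04 (adjusted p = 1.8e-04), and TDP2, a DNA end-processing enzyme gene, fell by 0.22 ± 0.06 (adjusted p = 0.0172, but 0.0537 with the block). The body components MORC3 (0.01) and HIPK2 (0.06) did not pass.

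Of 16 genes of H3.3 and its chaperones and of heterochromatin partners, 4 were lower, 1 was higher and 11 did not pass (median -0.03), and with the block 1 fell and 0 rose. MPHOSPH8 and TASOR, subunits of the HUSH silencing complex, fell by 0.32 ± 0.09 and 0.20 ± 0.05, the HIRA complex gene UBN1 by 0.26 ± 0.08 and the SETDB1 partner gene ATF7IP by 0.19 ± 0.06. H3-3A, which encodes H3.3, rose by 0.20 ± 0.06, and H3-3B had -0.01. With the block the adjusted p was 0.0444 for MPHOSPH8 and 0.0595 to 0.0682 for UBN1, H3-3A and TASOR, and ATF7IP did not pass either. Without control replicate 3, or without both libraries of batch 1, 0 of the 16 passed.

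Among 16 genes that carry interferon signals (receptors, JAK, STAT and IRF genes), 9 were lower, 2 were higher and 5 did not pass (median -0.16), and with the block 7 were lower and 1 was higher. The block calls lost were JAK1 (adjusted p = 0.103) and the receptor genes IFNGR1 (0.111) and IFNAR1 (0.0971). Without both libraries of batch 1 or of batch 3, 5 fell. The log2 fold changes of IRF7, IRF9 and STAT2 were -2.63 ± 0.24, -2.29 ± 0.07 and -1.14 ± 0.08. STAT2 and IRF9 are subunits of the factor that binds interferon-stimulated response elements, and IRF7 drives interferon genes. IRF8, a myeloid IRF gene, rose from 10.3 ± 0.375 to 17.5 ± 0.490 CPM (SD, n = 3, log2 fold change 0.76 ± 0.09, adjusted p = 3.5e-05).

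Relatives of the SP100 family by domain showed 1 fall among 6 tested genes, TRIM33 (-0.18 ± 0.04, adjusted p = 0.00910, but 0.0573 with the block). The SAND-domain genes DEAF1, GMEB1 and GMEB2 had -0.12, -0.15 and 0.34 and did not pass. AIRE, the SAND-domain relative that drives self-antigen expression in the thymus, had 0 counts in every library.

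The genes with the profiles most like each of the 7 were found by Euclidean distance between centred log2 CPM values over the 6 libraries, among 12555 other genes with a mean of at least 1 CPM. For SP110 they were DTX3L, PLSCR1 and SAMD9 (distances 0.260 to 0.336), with log2 fold changes of -3.12, -3.13 and -3.24. For PML they were REC8, CSF2RB and VCAN (0.236 to 0.327), for SP100 TRIM69, CTSL and S100A9 (0.0823 to 0.0946) and for SP140L PRR16, RASGRP3 and PCNX1 (0.0905 to 0.111). SP140 was nearest to TTC4P1, RIPK3 and CBR4 (0.108 to 0.216), DAXX to DOCK8, BTBD3 and AGPAT1 (0.0287 to 0.0393) and ATRX was near ZCCHC7 (0.0430) and PDCD6IP (0.0497). Among the 7 themselves the closest profiles were ATRX and DAXX (0.169), then SP140 and SP140L (0.402) and SP100 and SP140L (0.450), while SP110 was 1.55 from PML, its nearest. With 2 groups in 6 libraries, these distances mostly carry the group difference and say nothing of shared function.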

How the data were processed

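The deposited values were raw counts of reads for each gene, 6 libraries in 1 table, on hg38 (per the submitters' processing notes). Not given in the sources used here: aligner, counter, annotation release, strand setting. Each gene was matched by the symbol in its row name. Counts were tested with edgeR 4.0.16 in R 4.3.3 (TMM scaling, filterByExpr at min.count 10, min.total.count 15, quasi-likelihood test with robust dispersions, Benjamini-Hochberg adjustment over all 14051 tested genes, threshold 0.05). CPM values use TMM-scaled totals, and a count of 0 allows up to 0.120 to 0.169 CPM (3 counts, counting error only). Standard errors come from the coefficient and its F statistic. The procedure was tested on simulated data in which far fewer genes changed than passed here, so that test does not check the scaling of these data. The labels name no separate cultures, so p-values measure only how these samples vary, which may be technical.

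The members, lists and tests were chosen with earlier results of these data known. Named genes were the 7 members, up to 5 members of each list past the threshold by size of change, and the 3 nearest profiles of each member; others were named by position or after seeing values, and a few genes that this rule picks are not reported here. Labelled batch numbers 1 to 3 each pair 1 control with 1 ruxolitinib library; the deviations of paired libraries from their group means correlated at -0.02, -0.19 and -0.10 over genes. The main fit had no block. Alternatives were other scalings and filters, DESeq2 1.42.0, limma-voom (limma 3.58.1), the batch as a block, and leaving out each library or batch pair. The motifs AANNGAAA and AAGTGAAA, the genes beside the cluster with their alternatives, and the longest-transcript length were chosen after seeing the data. Gene positions and lengths came from GENCODE 29, and promoter windows from RefSeq (GRCh38.p14). Replicate libraries differed by more than sampling noise (chi-square per degree of freedom 3.38 to 21.1).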

Additional observations from a re-analysis of the deposited data

How the results depend on the processing

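SP110, PML, SP100 and SP140L kept their direction and their call under all 17 alternatives fitted, with log2 fold changes of -3.11 to -2.92, -2.06 to -1.63, -1.09 to -1.02 and -0.79 to -0.66. DAXX (-0.13 to -0.06) and ATRX (-0.12 to -0.04) passed under none of them. SP140 kept its call under 8 of the 17. It lost it by DESeq2 (-0.59) and with the replicate block (-0.61), and its range with libraries left out was -0.88 to -0.45. Lost calls and moved counts had causes that were not tested. The block changed the call of no other gene of the 7.

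With the replicate block, the SUMO list had 0 higher, PML body partners 1 lower, the H3.3 list 1 lower and 0 higher, interferon signalling 1 higher and the SAND and PHD-bromodomain relatives 0 lower. Upper-quartile factors gave 2 higher PML body partners, 2 lower H3.3 genes and 1 higher relative. DESeq2 gave 1 lower PML body partner and 2 lower H3.3 genes. Library totals alone gave 1 higher interferon signalling gene, and no filter gave 2 higher H3.3 genes. With libraries left out, 1 to 3 SUMO genes were lower and 0 to 3 higher, 1 to 3 PML body partners lower, 0 to 3 H3.3 genes lower and 0 to 4 higher, 5 to 11 interferon signalling genes lower and 1 to 3 higher, and 0 to 1 relatives lower and 0 to 1 higher. With libraries left out, 1983 to 5034 of all tested genes passed, 1143 to 2481 lower and 840 to 2553 higher, the lowest counts without both libraries of batch 1.

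Without the libraries of 1 number, differences in log2 ratio were 0.55 to 1.05 for SP100 to PML, 1.55 to 1.99 for DAXX to PML, -0.27 to 0.086 for SP140L to SP140 and 0.15 to 0.61 for SP140 to SP100. On the sense strand alone, the 4 planned motifs matched the same number of genes, but AANNGAAA and AAGTGAAA, chosen after seeing the data, each matched 1 window in place of 5. Depth limits SP140 most, with 39 to 101 counts per library.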
